A study of Homo sapiens with 9 samples.

Results

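The amino acid response directed by the transcription factor ATF4 was followed through 35 genes in cells that had lost dyskerin or GAR1. The genes were taken by symbol from a list of ATF4 and its known targets, and reads were summed per gene. All 35 were among the 18444 genes tested. They were read by role as 7 transcription factors, 7 feedback regulators and stress effectors, 6 amino acid transporters, 10 genes for tRNA charging and export, and 5 enzymes of amino acid metabolism.

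The RNA came from nuclei of U2OS cells, a human osteosarcoma line. Cells carried siDyskerin, directed against the pseudouridine synthase dyskerin (gene DKC1), siGAR1, directed against its H/ACA partner protein GAR1, or siControl, each at 15 nM for 48 hours, with 3 biological replicates per group. All groups, the controls included, were thus transfected. The study asked whether loss of an H/ACA protein changes the RNA output of genes, and the response genes are examined here for each knockdown. Because the RNA is nuclear it includes precursor transcripts, and in bulk RNA fewer responding cells and less RNA per cell cannot be told apart.

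Cells meet amino acid shortage and misfolded protein with kinases that phosphorylate the translation factor eIF2. General translation then falls, while translation of the ATF4 mRNA rises. ATF4 pairs with C/EBP-family proteins and binds composite DNA elements near genes that import amino acids, load them onto tRNAs or synthesize them, and it also induces the proteins that later switch the response off. The H/ACA complex, built on dyskerin with GAR1 as one of its core proteins, converts uridines to pseudouridines in RNA.

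Libraries held 48838756 to 80228785 summed reads in siDyskerin, 55766290 to 76028664 in siGAR1 and 56625768 to 90698675 in siControl. The targeted genes fell in their own libraries, with a log2 fold change of -2.79 for DKC1 after siDyskerin and -2.68 for GAR1 after siGAR1. Replicate 3 of siGAR1 stood apart at 23.2 on the third principal component (13.7% of the variance), where the other libraries lay between -5.91 and 1.98. Of 7 bone and mesenchymal markers, SPARC and VIM were abundant, TWIST1 was at 0 and COL1A2 was at or near 0 in every library. Their summed level was 3561 to 3893 CPM in siDyskerin, 3658 to 3821 CPM in siGAR1 and 3866 to 4375 CPM in siControl. The 6 epithelial markers, with KRT19 at or near 0, summed to 9.52 to 9.80 CPM in siDyskerin, 8.75 to 9.41 CPM in siGAR1 and 7.91 to 8.67 CPM in siControl. The part of these differences in the results was not tested.

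The promoters of the members were searched for the DNA element of the response. The composite element that ATF4 and C/EBP proteins bind has the core TGATGNAA, read TTNCATCA on the other strand, and both strands were searched in RefSeq promoter windows of GRCh38.p14 (250 bases before to 50 after each transcription start). Windows were matched for 33 of the 35 members, and NUPR1 and PYCR1 were not matched. The core stood in the windows of 14 of the 33 genes (42.4%), against 1217 of 27305 genes in all (4.46%). The exact form TGATGCAA, which is contained in the first search, stood in 9 of the 33 (27.3%), against 1.08% of all genes. The start is that of the RefSeq transcript and can differ from the first base of the GENCODE gene, as for MARS1, CHAC1 and SLC1A4. A gene was counted if any of its windows held the core, with 52 windows for the 33 members and 35116 for the 27305 genes. The members were listed as known ATF4 targets, so these shares describe the list and not a response in these cells. A match is a stretch of letters and does not show binding. The 6 windows below belong to members that passed the test in at least one comparison. They are written 5′ to 3′ on the strand of the gene with the core in capitals.
SLC1A4: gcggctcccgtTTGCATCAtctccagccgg
CHAC1: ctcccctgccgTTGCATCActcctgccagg
CARS1: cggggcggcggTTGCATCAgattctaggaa
MARS1: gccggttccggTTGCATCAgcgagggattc
AARS1: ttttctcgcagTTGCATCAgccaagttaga
ASNS: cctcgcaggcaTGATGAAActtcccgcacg

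The SLC1A4 window is chr2:64989381-64989410 on the plus strand with its core at -7 from the start, and the MARS1 window is chr12:57488053-57488082 on the plus strand with its core at -4. The CARS1 window is chr11:3057407-3057436 on the minus strand with its core at -2. Farther from the RefSeq start lie the cores of ASNS at -68 (chr7:97872458-97872487, minus strand), AARS1 at -187 (chr16:70289675-70289704, minus strand) and CHAC1 at -209 (chr15:40953251-40953280, plus strand). SLC1A4, CHAC1, CARS1, MARS1 and AARS1 thus share the TTGCATCA form, while ASNS carries TGATGAAA in the orientation of the gene. The other 8 members with a core, ATF3, CEBPG, SLC3A2, SLC7A1, SLC1A5, GARS1, IARS1 and NARS1, passed in no comparison by edgeR. Among the 14 genes with a core 4 fell after siGAR1 (median log2 fold change -0.26), and among the 19 genes without one in these windows 3 fell (median -0.16). Of all tested genes 1.79% fell there. PYCR1, which also fell, had no matched window and is in neither group. Whether genes with and without a core differed was not tested.

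Members differed widely in abundance. Levels per length were read as TPM of the longest protein-coding transcript of each gene, which need not be its main transcript. The value gives a rough order of genes within a library. It is not a true share of the reads, since a read appears to be counted in every transcript it fits. By this measure ATF4 mRNA was the most abundant in siControl (58.2 ± 3.09 TPM in siDyskerin, 40.9 ± 4.77 in siGAR1 and 52.9 ± 4.02 in siControl, SD, n = 3), and its siControl level overlapped that of the glutamine transporter SLC38A2 (49.4 ± 1.73 TPM). SLC3A2 (43.2 ± 0.60 TPM), SLC1A5 (40.3 ± 2.48 TPM) and GARS1 (34.2 ± 2.57 TPM) followed. At the other end stood the secreted glycoprotein gene STC2, at 0.0357 ± 0.0191 TPM. STC2 had 8.50 to 33.3 normalized counts over all libraries and gave no readable fold change.

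More members fell after GAR1 knockdown (8) than after dyskerin knockdown (1). After siGAR1, of the 35 members, 8 passed at an adjusted p under 0.01 (22.9%, against a background of 3.42% of all tested genes). All 8 fell (background 1.79%) and 0 rose (background 1.63%), with 1 higher at an unadjusted p under 0.05 by edgeR (11.8% of all genes) and 1, PPP1R15A, called higher by DESeq2. At the same unadjusted level 20 members were lower (12.2% of all genes). The genes that fell were CHAC1, SLC1A4, PCK2, CTH, DDIT4, ASNS, CARS1 and PYCR1. The median log2 fold change was -0.23 over the members and 0.01 over all genes, and 32 of 35 members were below 0. The 3 siGAR1 libraries lay below all 3 siControl libraries for 21 members (60%, against 14.1% of all genes) and above them for 1 (13.6% of all genes). After dyskerin knockdown 3 members passed (8.57%, against 6.40% of all genes), namely NUPR1 and VLDLR, which rose (5.71%, against 3.08%), and SESN2, which fell (2.86%, against 3.32%). The siDyskerin median was 0.02 for the members and 0.00 for all genes, with 19 members above 0 and 16 below. Groups did not overlap for 8 members higher (22.9%, against 16.0% of all genes) and 5 lower (14.3%, against 15.5%). The share of members called after siDyskerin was therefore near the background.

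Set directly against each other, the knockdowns differed in 14 members (40%, against 5.39% of all genes). In siDyskerin 13 were higher than in siGAR1 (37.1%, against 2.61%) and 1, PPP1R15A, was lower (2.86%, against 2.78%). The median was 0.24 for the members and -0.00 for all genes, and the groups did not overlap for 23 members higher in siDyskerin (65.7%, against 15.1%) and 2 lower (5.71%, against 14.6%). This comparison uses the same siGAR1 libraries as the one above and is not independent of it. With an added requirement of an absolute log2 fold change above 1, only CHAC1 remained, both after siGAR1 (1 member, against 0.282% of all genes) and between the knockdowns (1 member, against 0.721%), and 0 remained after siDyskerin by edgeR (0.938% of all genes).

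**Figure D1:**
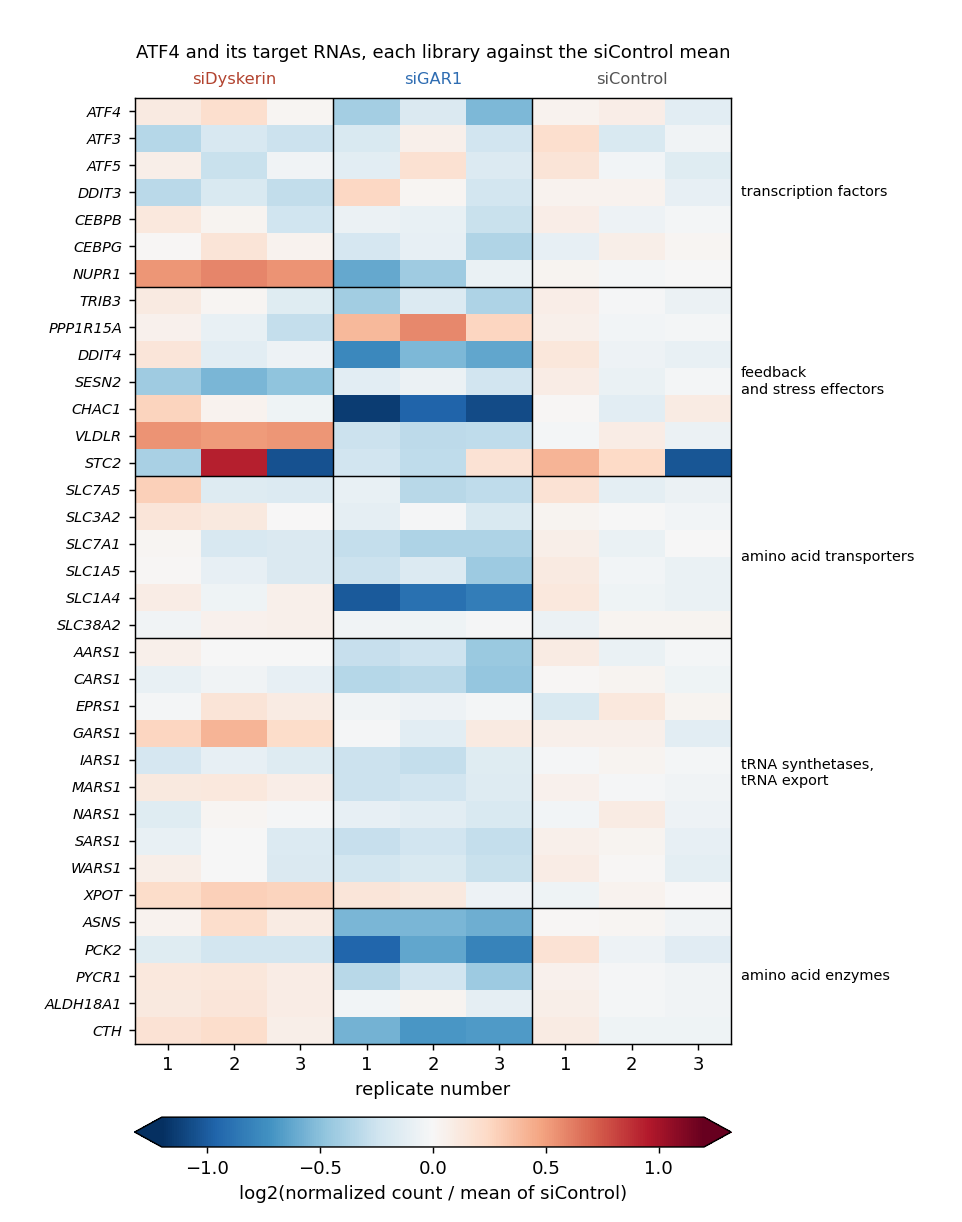
Each cell is the log2 ratio of a member's normalized count in 1 library (columns, by replicate number within siDyskerin, siGAR1 and siControl) to its siControl mean, with members in rows by role. The median over members was 0.07, 0.03 and -0.04 in the siDyskerin libraries, -0.26, -0.18 and -0.27 in the siGAR1 libraries and 0.06, -0.01 and -0.05 in the siControl libraries, and the low-count STC2 row varies most within groups.

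Of the 7 transcription factors NUPR1 alone passed after a knockdown. ATF4 itself (chromosome 22, 39519695 to 39522683, plus strand) had 16654, 19656 and 15189.6 normalized counts in siGAR1, against 22714, 23321 and 20281 in siControl. All siGAR1 libraries were lower than the siControl ones, yet the log2 fold change of -0.36 (SE 0.09) missed the threshold at an adjusted p = 0.021. In siDyskerin ATF4 had 23832, 25387 and 22448 normalized counts, which overlapped siControl (log2 fold change 0.11, adjusted p = 0.47). Between the knockdowns ATF4 mRNA was higher in siDyskerin by 0.48 on the log2 scale (SE 0.09, adjusted p = 0.0034). That call ended without siDyskerin replicate 1 (0.48, adjusted p = 0.015) or 2 (0.43, adjusted p = 0.021), and without siGAR1 replicate 1 (0.45, adjusted p = 0.019) or 3 (0.39, adjusted p = 0.010).

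NUPR1, a small stress-induced chromatin protein that ATF4 induces (chromosome 16, 28532708 to 28539008, minus strand), had 1062, 1109 and 1072 normalized counts in siDyskerin, against 752, 725 and 733 in siControl. It rose by 0.55 on the log2 scale (SE 0.11, adjusted p = 0.0044), with no overlap of the groups. The call was lost on leaving out any 1 of the siDyskerin or siControl libraries, at fold changes of 0.53 to 0.56 and adjusted p up to 0.023, and with lengthScaledTPM counts in edgeR (0.56, adjusted p = 0.011). In siGAR1 NUPR1 had 482, 547 and 695 normalized counts, all under siControl, with the value nearest to siControl in replicate 3 (log2 fold change -0.36, adjusted p = 0.064). Between siDyskerin and siGAR1 it differed by 0.92 (SE 0.11, adjusted p = 0.00017). The remaining factors passed in no comparison. ATF3 and ATF5 are related bZIP factors, DDIT3 encodes CHOP, which drives death under lasting stress, and CEBPB and CEBPG encode C/EBP partners of ATF4. Their log2 fold changes ran from -0.27 (DDIT3) to 0.07 (CEBPG) after siDyskerin and from -0.22 (CEBPG) to 0.03 (DDIT3) after siGAR1. Of the 7 factors 0 passed by edgeR after siGAR1, with 3 lower at an unadjusted p under 0.05 (12.2% of all genes) and 1 (ATF4) by DESeq2. DDIT3 overlaps the end of MARS1 on the opposite strand of chromosome 12, and the quantification was stranded.

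**Figure D2:**
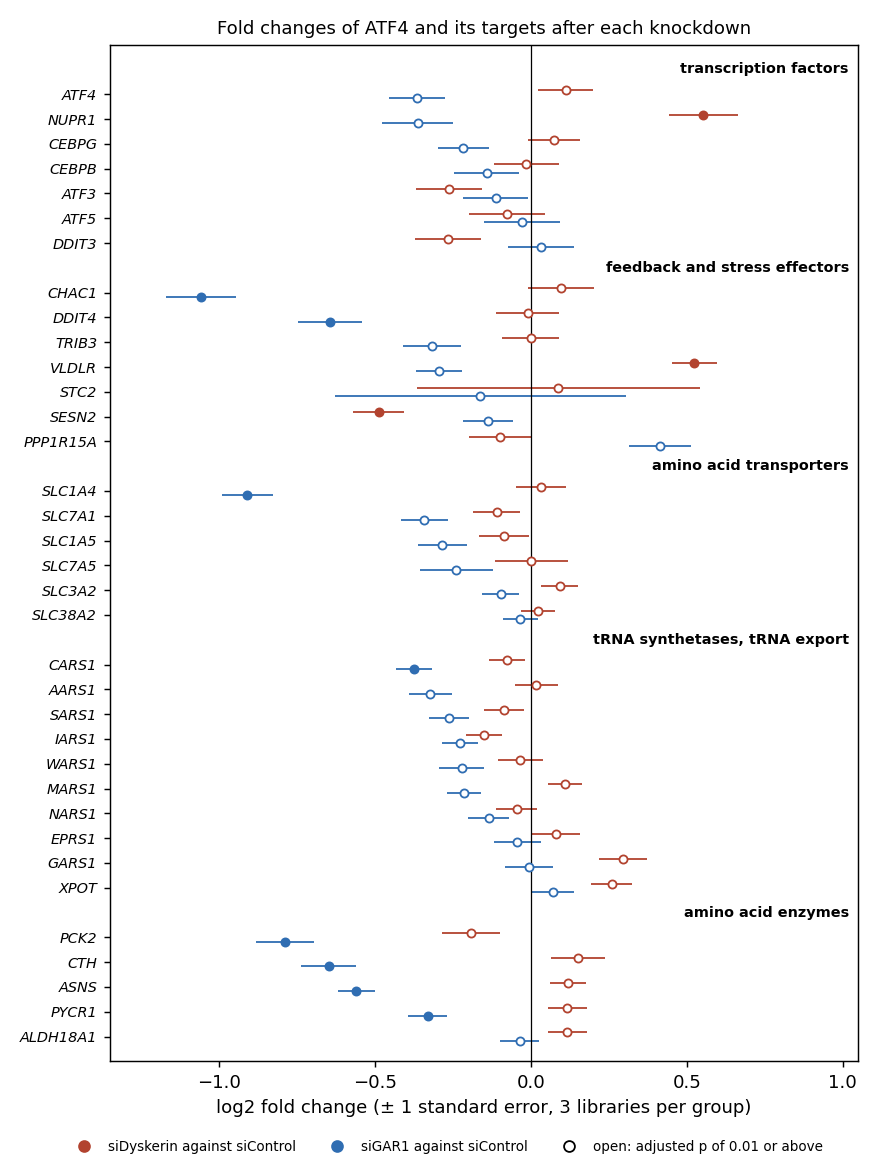
Points give the log2 fold change of each member after siDyskerin (red) and siGAR1 (blue) against siControl with bars of 1 standard error (3 libraries per group), filled where the adjusted p is under 0.01. CHAC1 at -1.06, SLC1A4 at -0.91 and PCK2 at -0.79 lie farthest left after siGAR1, while NUPR1, VLDLR and SESN2 are the filled points after siDyskerin.

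Feedback regulators and stress effectors held the member with the largest change. CHAC1, which breaks down glutathione (chromosome 15, 40952962 to 40956512, plus strand), had 281, 318 and 294 normalized counts in siGAR1, against 627, 567 and 664 in siControl. It fell, with a log2 fold change of -1.06 (SE 0.11, adjusted p = 7.3e-05), and no library of the groups overlapped. In siDyskerin it had 745, 637 and 599 normalized counts, which overlapped siControl (0.10, adjusted p = 0.63), and the knockdowns differed by 1.15 (SE 0.11, adjusted p = 1.9e-05). The promoter core of CHAC1 is the farthest from its RefSeq start of the 6 shown above.

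DDIT4, also called REDD1, restrains mTORC1 signalling (chromosome 10, 72273919 to 72276036, plus strand). It had 593, 697 and 655 normalized counts in siGAR1, against 1114, 972 and 949 in siControl, and fell by 0.64 on the log2 scale (SE 0.10, adjusted p = 0.0016). Without siGAR1 replicate 1 the value was -0.59 and the adjusted p 0.011. In siDyskerin its 1116, 928 and 971 normalized counts overlapped siControl (log2 fold change -0.01). The difference between siDyskerin and siGAR1 was 0.63 (SE 0.10, adjusted p = 0.0013), and it passed in all 18 alternatives.

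VLDLR, a lipoprotein receptor whose gene ATF4 induces (chromosome 9, 2621182 to 2660056, plus strand), had 1926, 1894 and 1922 normalized counts in siDyskerin, against 1312, 1411 and 1267 in siControl. It rose by 0.52 on the log2 scale (SE 0.07, adjusted p = 0.00025). In siGAR1 its 1109.7, 1070.1 and 1074 normalized counts were all under siControl (log2 fold change -0.29, adjusted p = 0.022). The 3 groups did not overlap, with siDyskerin highest and siGAR1 lowest, and siDyskerin exceeded siGAR1 by 0.82 (SE 0.07, adjusted p = 8.9e-06).

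SESN2, a leucine sensor that restrains mTORC1 (chromosome 1, 28259518 to 28282491, plus strand), had 1031, 945 and 993 normalized counts in siDyskerin, against 1479, 1314 and 1366 in siControl. It fell by 0.49 on the log2 scale (SE 0.08, adjusted p = 0.0011), the sole member to fall after siDyskerin. In siGAR1 SESN2 had 1271, 1324 and 1184 normalized counts, which reached into the siControl range (log2 fold change -0.14, adjusted p = 0.32). The direct difference was -0.35 at an adjusted p = 0.013 and did not pass.

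PPP1R15A, also called GADD34, guides the phosphatase that reverses eIF2 phosphorylation (chromosome 19, 48872212 to 48876059, plus strand). Its normalized counts were 1927, 2199 and 1754 in siGAR1, against 1530.1, 1433 and 1447 in siControl. All siGAR1 libraries were higher, the one member for which this held, with a log2 fold change of 0.42 (SE 0.10, adjusted p = 0.019). In siDyskerin it had 1528, 1379 and 1208 normalized counts, lower than in siGAR1 with a log2 fold change of -0.51 (SE 0.10, adjusted p = 0.0043). This call was lost without siDyskerin replicate 2 or 3, or siGAR1 replicate 1 or 2, with values of -0.53 to -0.42 and adjusted p up to 0.025, and with lengthScaledTPM counts in edgeR (-0.50, adjusted p = 0.011). TRIB3, a pseudokinase that inhibits ATF4, did not pass in any comparison (-0.00 after siDyskerin, -0.32 after siGAR1 at an adjusted p = 0.048).

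**Figure D3:**
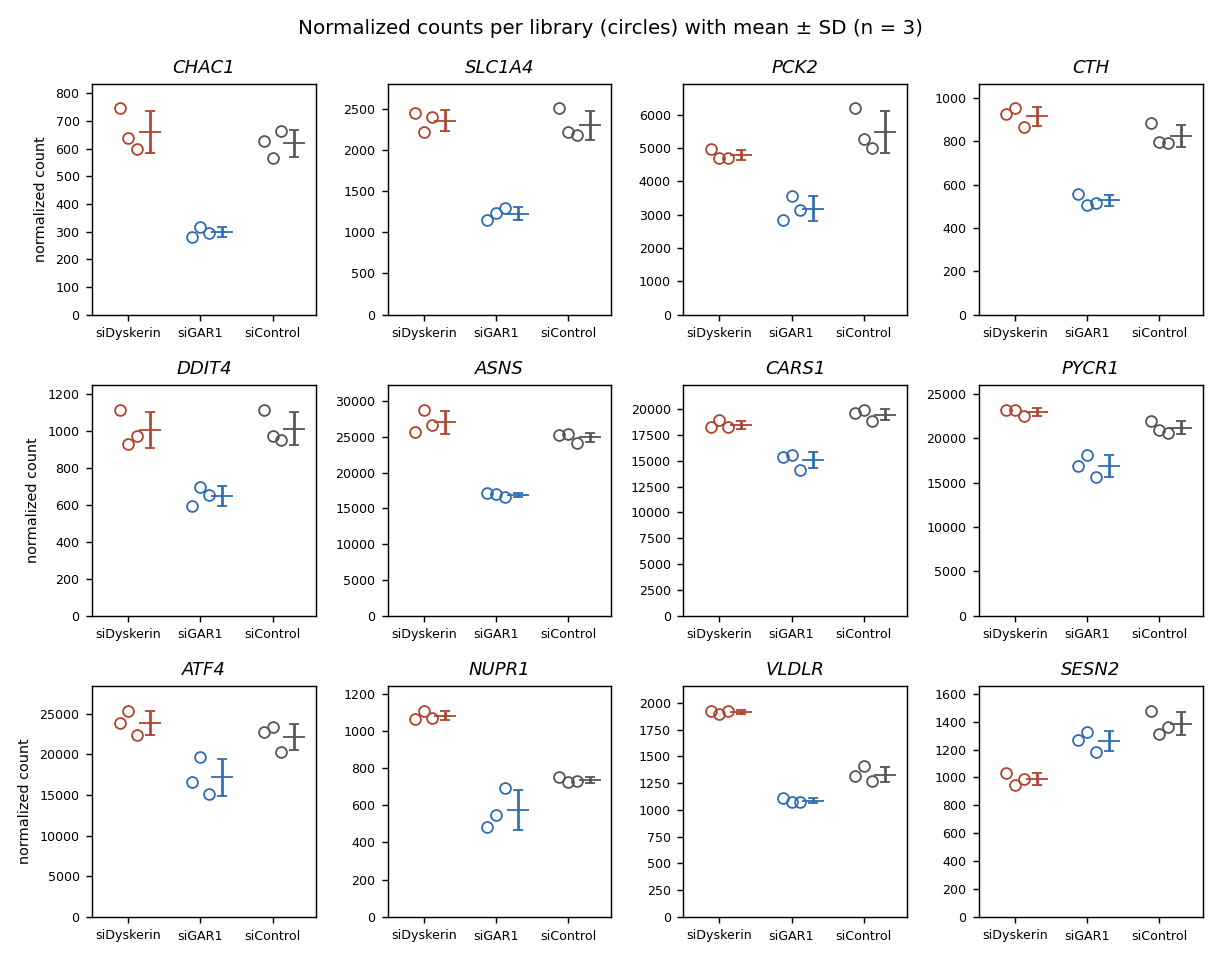
Circles are normalized counts per library for 12 members in siDyskerin, siGAR1 and siControl, with the mean ± SD (n = 3) beside them and axes that start at 0. The 8 members that fell after siGAR1 fill the first 2 rows, with CHAC1 at 281 to 318 in siGAR1, 599 to 745 in siDyskerin and 567 to 664 in siControl.

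Among the 6 amino acid transporters SLC1A4 was the one that passed by edgeR. DESeq2 called SLC1A4, SLC1A5 and SLC7A1 lower after siGAR1, where it called 7.43% of all genes in either direction. SLC1A4, which exchanges alanine, serine and cysteine (chromosome 2, 64988477 to 65023865, plus strand), had 1146, 1240.1 and 1296 normalized counts in siGAR1, against 2507, 2219 and 2178 in siControl. It fell by 0.91 on the log2 scale (SE 0.08, adjusted p = 2.3e-05), and the groups were far apart beside their spread. In siDyskerin SLC1A4 had 2449, 2217 and 2407 normalized counts, which overlapped siControl (0.03, adjusted p = 0.85). The direct difference was 0.94 (SE 0.08, adjusted p = 8.3e-06).

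The other transporters did not pass by edgeR. SLC7A5 and SLC3A2 form the exchanger of large neutral amino acids, SLC7A1 carries arginine and lysine, and SLC1A5 and SLC38A2 carry glutamine. Their log2 fold changes after siGAR1 were all below 0, at -0.34 for SLC7A1 (adjusted p = 0.012), -0.28 for SLC1A5 (adjusted p = 0.040), -0.24 for SLC7A5, -0.10 for SLC3A2 and -0.03 for SLC38A2. SLC7A1 and SLC1A5 counts in siGAR1 lay under all siControl counts, whereas those of SLC7A5, SLC3A2 and SLC38A2 overlapped. After siDyskerin 0 of 6 transporters passed by edgeR or DESeq2 and 0 had an unadjusted p under 0.05, with log2 fold changes of -0.11 to 0.09. All 6 were above 0 between siDyskerin and siGAR1 (median 0.22), and SLC1A4 was the one that passed. SLC38A2 and SLC3A2, the most abundant transporters by TPM of the longest coding transcript, thus had the smallest fold changes after siGAR1.

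The tRNA synthetases load amino acids onto tRNAs, and XPOT exports tRNAs from the nucleus. Of these 10 genes CARS1, the cysteine enzyme (chromosome 11, 3000922 to 3057613, minus strand), fell after siGAR1. It had 15358, 15609 and 14163 normalized counts in siGAR1, against 19646, 19977 and 18856 in siControl, a log2 fold change of -0.37 (SE 0.06, adjusted p = 0.0014). Its siDyskerin counts of 18317, 18952 and 18237 reached into the siControl range (-0.08, adjusted p = 0.46). They exceeded siGAR1 by 0.30 (SE 0.06, adjusted p = 0.0046), a call lost on leaving out any 1 of the siDyskerin or siGAR1 libraries (0.25 to 0.32, adjusted p up to 0.028) and with 1 transcript per gene (0.32, adjusted p = 0.015).

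AARS1, the alanine enzyme (chromosome 16, 70251983 to 70289707, minus strand), had 7582, 7722 and 6730.2 normalized counts in siGAR1, against 9812, 8709 and 9024 in siControl. All siGAR1 libraries were lower, but the log2 fold change of -0.32 (SE 0.07) narrowly missed the threshold (adjusted p = 0.011). In siDyskerin AARS1 had 9576, 9146 and 9179 normalized counts, within the siControl range, and more than in siGAR1 by 0.34 (SE 0.07, adjusted p = 0.0062). That difference did not pass without siControl replicate 3 or without any 1 of the siDyskerin or siGAR1 libraries (0.28 to 0.38, adjusted p up to 0.027), nor with 1 transcript per gene (0.31, adjusted p = 0.011).

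MARS1, the methionine enzyme (chromosome 12, 57475445 to 57517569, plus strand), had 32420.5, 33150.2 and 34846 normalized counts in siGAR1, against 40172, 38496 and 37758 in siControl. The log2 fold change was -0.21 (adjusted p = 0.026). Its siDyskerin counts were 42211, 42476 and 40890.1, above all siControl libraries, but at 0.11 (adjusted p = 0.22) this did not pass. Between siDyskerin and siGAR1 MARS1 differed by 0.32 (SE 0.05, adjusted p = 0.0016), which was lost without siDyskerin replicate 2 (0.31, adjusted p = 0.011) or siGAR1 replicate 1 (0.30, adjusted p = 0.013).

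SARS1, IARS1, WARS1, NARS1, EPRS1, GARS1 and XPOT passed in no comparison by edgeR. DESeq2 called 5 of the 10 genes lower after siGAR1, namely AARS1, CARS1, IARS1, MARS1 and SARS1, where it called 7.43% of all genes in either direction. The genes that passed in no comparison by edgeR ran after siGAR1 from -0.26 (SARS1, adjusted p = 0.022) to 0.07 (XPOT). SARS1, IARS1, WARS1 and NARS1 counts in siGAR1 lay under all siControl counts, while EPRS1, GARS1 and XPOT overlapped. After siDyskerin GARS1 was at 0.30 (adjusted p = 0.021) and XPOT at 0.26 (adjusted p = 0.019), with all siDyskerin libraries above siControl for both. Of the 10 genes 0 passed after siDyskerin by edgeR. At an unadjusted p under 0.05, 2 of them (GARS1 and XPOT) were higher and 1 lower (13.0% and 13.1% of all genes). DESeq2 called GARS1 and XPOT higher, where it called 10.5% of all genes in either direction. All 10 genes were above 0 between siDyskerin and siGAR1 (median 0.19).

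Enzymes of amino acid metabolism had the lowest median of the 5 roles after siGAR1, at -0.56, and 4 of 5 fell (80%, against 1.79% of all genes). PCK2, the mitochondrial PEP carboxykinase (chromosome 14, 24094053 to 24110598, plus strand), had 2827, 3566 and 3142 normalized counts in siGAR1, against 6195, 5262 and 4993 in siControl. It fell by 0.79 on the log2 scale (SE 0.09, adjusted p = 0.00018). In siDyskerin PCK2 had 4970.3, 4714 and 4714 normalized counts, all just under siControl without passing (-0.19, adjusted p = 0.21). It was therefore lowest in siGAR1 and in between in siDyskerin, and the knockdowns differed by 0.59 (SE 0.09, adjusted p = 0.0011).

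CTH, which makes cysteine from cystathionine (chromosome 1, 70411218 to 70439851, plus strand), had 556, 508 and 516 normalized counts in siGAR1, against 883, 797 and 794 in siControl. The fall of 0.65 on the log2 scale (SE 0.09, adjusted p = 0.00059) came with no overlap. Its siDyskerin counts were 927, 952 and 868, partly above siControl (0.15, adjusted p = 0.30) and above siGAR1 by 0.80 (SE 0.09, adjusted p = 6.8e-05).

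ASNS, asparagine synthetase (chromosome 7, 97851677 to 97872542, minus strand), had 17079, 17010.0 and 16606 normalized counts in siGAR1, against 25207, 25349.8 and 24138 in siControl. It fell by 0.56 on the log2 scale (SE 0.06, adjusted p = 6.8e-05), with little spread within either group. In siDyskerin ASNS had 25708, 28801 and 26605 normalized counts, each above siControl but not past the threshold (0.12, adjusted p = 0.21), and the direct difference was 0.68 (SE 0.06, adjusted p = 8.1e-06).

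PYCR1, the last enzyme of mitochondrial proline synthesis (chromosome 17, 81932384 to 81942412, minus strand), had 16877, 18081 and 15666 normalized counts in siGAR1, against 22025, 20956 and 20652 in siControl. It fell by 0.33 on the log2 scale (SE 0.06, adjusted p = 0.0049). The call was lost without any 1 of the siControl libraries or without siGAR1 replicate 1, at values of -0.36 to -0.31 and adjusted p up to 0.021. It was also lost with lengthScaledTPM counts in edgeR (-0.29, adjusted p = 0.019), with 1 transcript per gene (-0.26, adjusted p = 0.084) and with only these groups in the fit (-0.33, adjusted p = 0.015). In siDyskerin PYCR1 had 23229, 23267 and 22523 normalized counts, and exceeded siGAR1 by 0.45 (SE 0.06, adjusted p = 0.00042). ALDH18A1, the first enzyme of the same route, did not pass (0.12 after siDyskerin, -0.03 after siGAR1). Of the 5 enzymes 0 passed after siDyskerin by edgeR or DESeq2, and 0 had an unadjusted p under 0.05.

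Protein-coding transcripts held a median of 82.7% of a member's summed reads in siDyskerin, 81.9% in siGAR1 and 82.7% in siControl, sums in which 1 read can stand in several transcripts. The share was lowest for MARS1, at 34.2% in siDyskerin, 34.3% in siGAR1 and 34.4% in siControl. For CHAC1 they held 100% in every group, and for ASNS 82.7% in siDyskerin, 82.5% in siGAR1 and 82.7% in siControl. With protein-coding transcripts alone 11 members passed after siGAR1 (5.30% of all genes passed in that fit), 10 of them lower, and these included all 8 above.

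Neighbouring genes of the pathway were read from lists of non-members. Serine and one-carbon enzymes, which ATF4 also controls, fell after siGAR1 in 5 of 7 cases (71.4%, against 1.79% of all genes, median -0.37). PSAT1 fell by 0.63 on the log2 scale (adjusted p = 6.8e-05), PHGDH by 0.45 (adjusted p = 0.00046), ALDH1L2 by 0.52 (adjusted p = 0.00096) and SHMT2 by 0.37 (adjusted p = 0.0032). After siDyskerin 3 of 7 rose (42.9%, against 3.08% of all genes), namely PHGDH (0.38, adjusted p = 0.00068), ALDH1L2 (0.42, adjusted p = 0.0019) and PSPH (0.34, adjusted p = 0.0044). The list did not move as one there. At an unadjusted p under 0.05 by edgeR, 4 were higher and 2 lower (13.0% and 13.1% of all genes), and 0 passed as lower. PHGDH, which commits glucose carbon to serine, thus passed in opposite directions, and the direct difference was 0.83 (adjusted p = 2.0e-06).

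Among other known ATF4 targets 4 of 18 fell after siGAR1 (22.2%, against 1.79% of all genes) and 1 rose (5.56%, against 1.63%), with a median of -0.23. They included GPT2, an alanine transaminase (-0.59, adjusted p = 0.00018), JDP2, a bZIP repressor (-0.54, adjusted p = 0.0014), KDM7A (-0.61, adjusted p = 0.0016), and GADD45A, which rose (0.36, adjusted p = 0.0034). After siDyskerin 1 of 18 rose (5.56%, against 3.08% of all genes, median 0.03). That gene was SLC7A11, the cystine importer, at 7749 ± 352 normalized counts in siDyskerin and 3646 ± 434 in siControl (SD, n = 3), a log2 fold change of 1.09 (SE 0.09, adjusted p = 2.9e-06). Between siDyskerin and siGAR1 6 of 18 were higher (33.3%, against 2.61% of all genes), with SLC7A11 at 0.93. None was lower by edgeR or DESeq2 or at an unadjusted p under 0.05.

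Upstream of ATF4, the median was -0.09 for eIF2 kinases and -0.00 for eIF2 and eIF2B genes after siDyskerin, and -0.01 for both lists after siGAR1. Of 8 eIF2 kinases and activators, OMA1 fell after siDyskerin (-0.44, adjusted p = 0.0095; 12.5%, against 3.32% of all genes). There DESeq2 called 1 higher and 3 lower, and called 10.5% of all genes in either direction. After siGAR1 0 of the 8 passed by edgeR or DESeq2, with 1 higher and 1 lower at an unadjusted p under 0.05. Of 12 eIF2, eIF2B and phosphatase genes 0 passed by edgeR after either knockdown, with 0 higher and 1 lower at an unadjusted p under 0.05 after siDyskerin, and 2 higher and 2 lower after siGAR1. DESeq2 called 0 of the 12 after siDyskerin and 1 lower after siGAR1. Between siDyskerin and siGAR1, edgeR called 1 of the 8 lower (12.5%, against 2.78% of all genes). It called 1 of the 12 higher there (8.33%, against 2.61%). In that comparison DESeq2 called EIF2AK4 lower and PPP1R15B higher in siDyskerin, and called 9.48% of all genes in either direction.

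Beyond the members, the cytosolic leucine enzyme LARS1 fell after siGAR1 (-0.30, adjusted p = 0.0070). It belongs to a list of 14 other cytosolic synthetase and complex genes. Their median was -0.05 after siDyskerin and 0.03 after siGAR1. Of 17 mitochondrial synthetases 0 passed by edgeR or DESeq2 in any comparison. At an unadjusted p under 0.05, 3 were higher and 7 lower after siDyskerin, 0 higher and 2 lower after siGAR1, and 0 higher and 3 lower between the knockdowns. Of all genes 13.0% were higher and 13.1% lower at that level after siDyskerin, 11.8% and 12.2% after siGAR1, and 13.1% and 12.4% between the knockdowns.

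Of 12 genes of the other unfolded protein response arms 3 fell after siDyskerin (25%, against 3.32% of all genes). They were the ER chaperones HYOU1 (-0.46, adjusted p = 0.00022) and HSPA5 (-0.28, adjusted p = 0.0065) and the secreted factor MANF (-0.33, adjusted p = 0.0093). After siGAR1 1 fell (8.33%, against 1.79%), the transcription factor gene XBP1 (-0.44, adjusted p = 0.00086), and DESeq2 called HSPA5 and XBP1 lower. The list median was -0.16 after each knockdown, with 10 of the 12 genes below 0. At an unadjusted p under 0.05, 7 were lower and 1 higher after siDyskerin (13.1% and 13.0% of all genes). At that level 7 were lower and 0 higher after siGAR1 (12.2% and 11.8%). Among 15 other amino acid transporters SLC6A6, which carries taurine, rose after siDyskerin (0.59, adjusted p = 3.2e-05), 6.67% against 3.08% of all genes. SLC7A2, which carries arginine, fell after siGAR1 (-0.66, adjusted p = 2.7e-05), 6.67% against 1.79%. After siDyskerin SLC7A2 was at -0.26 by edgeR (adjusted p = 0.012). DESeq2 called SLC6A6 higher and SLC7A2 lower after both knockdowns, where it called 10.5% (siDyskerin) and 7.43% (siGAR1) of all genes in either direction. Among 13 genes of mTORC1 amino acid sensing SESN1 rose after siDyskerin (0.51, adjusted p = 0.0021) and after siGAR1 (0.64, adjusted p = 0.00081), whereas its relative SESN2 is the member that fell after siDyskerin.

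**Figure D4:**
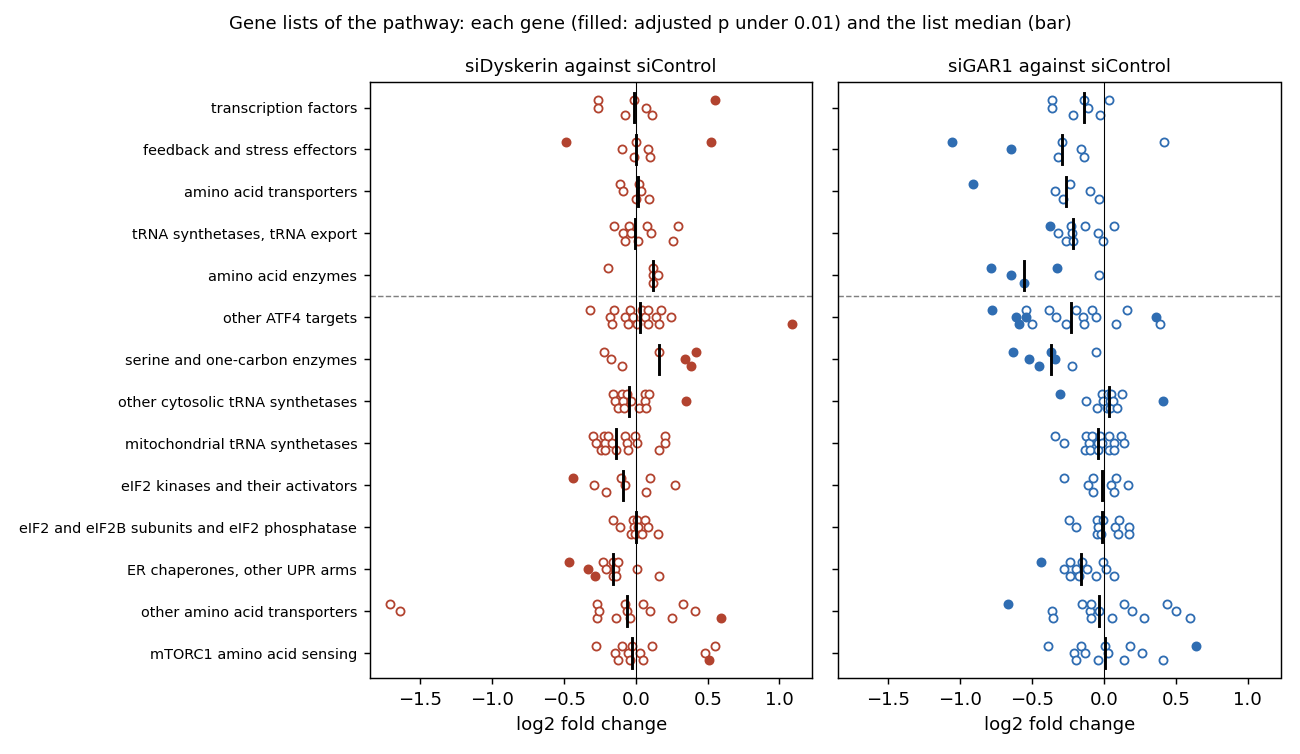
Points are log2 fold changes of single genes in the 5 member roles (above the dashed line) and in 9 further lists (below it), after siDyskerin (left) and siGAR1 (right) against siControl, filled where the adjusted p is under 0.01, with bars at list medians. After siGAR1 the lowest medians are those of the amino acid enzymes (-0.56) and of the serine and one-carbon enzymes (-0.37), while the eIF2 lists stay at -0.01.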

How the data were processed

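The deposited transcript tables hold, per the authors, Salmon 1.2.0 expected counts and TPM values, one table per library, quantified against GENCODE 27 on GRCh38 with library type ISR and bias correction. FastQC 0.11.9, Trim Galore 0.6.4, Bowtie2 2.4.1, STAR 2.7.0e and Picard are also named in the submitters' processing notes. Where one transcript of a member lay inside another (11 pairs, 9 members), the longer always had at least as many reads, so reads appear to be counted in every transcript they fit. Gene sums were therefore used to compare groups, not genes. Identifiers assigned 195887 of the 200401 transcripts to 58425 GENCODE 44 genes, and the rest (3.69 to 3.84% of reads) were left out. Summed reads per library were 48838756 to 90698675, so the spread between replicates (common biological coefficient of variation 0.0886), more than counting, set the precision for all members but STC2.

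Sums were rounded, filtered with filterByExpr, scaled by the trimmed mean of M values (0.982 to 1.02) and tested with the edgeR 4.0.16 quasi-likelihood F-test over all 9 libraries and 18444 genes, without covariates (limma 3.58.1, R 4.3.3). A gene passed where its p, adjusted by Benjamini-Hochberg, was under 0.01 (the study's false discovery rate). The study's plot of changed genes also required an absolute log2 fold change above 1, which is required here only where stated. DESeq2 1.42.0, lengthScaledTPM counts as in the study, and other filters, scalings and sets of libraries were alternatives. Normalized counts refer to a library of mean size, errors are SDs of the libraries in a group, and SE is that of the log2 fold change. Over all genes tested, same-numbered libraries deviated from their group means with correlations of -0.07 to 0.10, and the numbers were not used to pair them. Some members did keep an order, as ATF4 was highest in replicate 2 and lowest in replicate 3 of every group. Whether the libraries were paired is not known. All members were named, with values in every library for those that passed, and up to 4 genes of each other list. Some genes of those lists are not reported here. The members and lists were chosen with earlier results of these data known. Tables and plots used Python 3.11.15, numpy 2.4.6, pandas 2.3.3 and matplotlib 3.10.9.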

Additional observations from a re-analysis of the deposited data

How the results depend on the processing

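No fold change of a member turned its direction past the threshold in any of the 18 alternatives. After siGAR1 17 members passed with DESeq2 (7.43% of all genes), 15 with DESeq2 on lengthScaledTPM counts (6.46%), 14 without the low-count filter (4.04%) and 18 at a threshold of 0.05 (8.70%), against 8 (3.42%), and 1 passed with the fold requirement. After siDyskerin 5 passed with DESeq2 (10.5% of all genes), with DESeq2 on lengthScaledTPM counts (9.58%), with 1 transcript per gene (6.87%) and at 0.05 (13.1%), against 3 (6.40%), and 0 with the fold requirement. Between the knockdowns 14 passed (5.39% of all genes), and 1 with the fold requirement (0.721%). Leaving out 1 library gave 2 to 4 members after siDyskerin (3.72 to 7.57% of all genes) and 6 to 10 after siGAR1 (1.54 to 3.09%). Between the knockdowns it gave 9 to 14 (2.46 to 5.89%), where 9 remained without siDyskerin replicate 2 and without siGAR1 replicate 1. Without siGAR1 replicate 3, which stood apart, 10 passed after siGAR1 (2.86% of all genes) and 12 between the knockdowns (5.11%). With a replicate block 3 passed after siDyskerin (7.15% of all genes), 11 after siGAR1 (3.85%) and 14 between the knockdowns (5.69%). The block added AARS1, ATF4 and SLC7A1 after siGAR1, and whether the numbers pair the libraries is not known. ASNS, PCK2, CARS1, SLC1A4, CTH and CHAC1 after siGAR1, and SESN2 and VLDLR after siDyskerin, passed in all 18 alternatives.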
